A study of Mus musculus with 36 samples.

Results

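Kap, Odc1, Gusb, Acsm3 and Cyp2j13 are genes of the mouse kidney known to respond to androgens. They were taken by symbol from the count tables, where each symbol matched a single Ensembl gene, so that 5 of the 78239 genes counted are described here. RNA was sequenced from the kidney, liver and heart of male wild-type C57BL/6NCrl mice, an inbred substrain bought from a commercial breeder, aged 8, 10 or 12 weeks. Each tissue and age had 4 libraries, 36 in all, which were biological replicates. All groups shared sex, genotype, chow, a 12 h light cycle and ketamine and xylazine anaesthesia before collection, and differed in age. No females, castrated males or hormone-treated mice were among these libraries, and no hormone level was used here. The values therefore show how these genes stood in males of different ages, not how they respond to androgen.

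In the mouse kidney, testosterone and dihydrotestosterone act on the cells of the proximal tubule, the segment that takes back most of the filtered solutes. Several enzymes and transporters of this segment are expressed at different levels in males and females, and the mouse kidney has long served as a model of androgen action outside the reproductive tract. Kap encodes the kidney androgen-regulated protein, a small protein of the proximal tubule. Odc1 encodes ornithine decarboxylase, which makes putrescine in the rate-limiting step of polyamine synthesis. Gusb encodes beta-glucuronidase, a lysosomal hydrolase that removes glucuronic acid from glycosaminoglycans. Acsm3 encodes a mitochondrial medium-chain acyl-CoA synthetase, and Cyp2j13 a cytochrome P450 of the Cyp2j family, whose members oxidise arachidonic acid and related fatty acids.

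In the coordinates of mouse build GRCm39, Kap lies on the minus strand at chr6:133826814-133830725 and Odc1 on the plus strand at chr12:17594383-17601507. Gusb lies at chr5:130017852-130031903 on the minus strand, Acsm3 at chr7:119360137-119386736 on the plus strand, and Cyp2j13 at chr4:95915771-95965813 on the minus strand. All are protein-coding genes. STAR leaves out of the count any pair that falls where exons of different genes overlap. Exons of Acsm3 share 2132 bases with Eri2 on the opposite strand, and counting by strand gave Acsm3 1.93 times as many pairs in the median kidney library, a sum that can also hold reads of Eri2, so the Acsm3 level below may be a low estimate. The strand columns of these libraries cannot part the 2 genes, because 49.9% to 50.0% of the kidney counts fell on each strand. Gusb shares 640 exon bases with Vkorc1l1 and Odc1 shares 225 with the lncRNA gene Gm59592 and 136 with the snoRNA gene Gm22748, and for both genes the ratio was 1.00. Odc1 has 21 annotated pseudogenes with transcripts 84.9% to 97.8% identical over at least 150 bases, which together took 3.21 to 8.15 CPM (counted pairs per 1000000 of a library) in kidney. Cyp2j13 transcripts were 80.8% identical to those of Cyp2j6 and Cyp2j9 and 83.3% identical to those of Cyp2j5 over 629 bases. The highest identity to any gene over the same minimum was 89.7%, over 234 bases of Ppp2r2c.

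The promoters of Kap, the gene with the most transcripts, and of Odc1 and Cyp2j13, the pair that varied most closely together over the kidney libraries, are shown as the 250 bases before the RefSeq start. The sequences came from the RefSeq promoter table made on build GRCm38.p6, and each was found once on its chromosome in GRCm39. Capitals mark TATAAA or GGGCGG on either strand, so that a GC box of the opposite strand reads CCGCCC, and all 3 windows are written 5′ to 3′ on the gene's own strand. They lie at chr6:133830631-133830880, chr12:17594624-17594873 and chr4:95965778-95966027. Ensembl, whose gene bounds are given above, starts each of these genes farther upstream than RefSeq, so the windows reach into its first exons or introns.
Kap: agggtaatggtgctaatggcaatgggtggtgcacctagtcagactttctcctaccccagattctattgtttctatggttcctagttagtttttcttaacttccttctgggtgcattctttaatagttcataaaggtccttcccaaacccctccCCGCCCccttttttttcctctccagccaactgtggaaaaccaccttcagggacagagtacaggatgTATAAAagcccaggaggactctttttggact
Odc1: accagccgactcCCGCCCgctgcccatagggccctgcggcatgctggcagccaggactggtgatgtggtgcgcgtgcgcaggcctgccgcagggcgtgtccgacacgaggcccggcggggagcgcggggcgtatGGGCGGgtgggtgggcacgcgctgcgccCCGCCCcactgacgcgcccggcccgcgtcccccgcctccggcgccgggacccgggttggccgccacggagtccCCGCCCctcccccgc
Cyp2j13: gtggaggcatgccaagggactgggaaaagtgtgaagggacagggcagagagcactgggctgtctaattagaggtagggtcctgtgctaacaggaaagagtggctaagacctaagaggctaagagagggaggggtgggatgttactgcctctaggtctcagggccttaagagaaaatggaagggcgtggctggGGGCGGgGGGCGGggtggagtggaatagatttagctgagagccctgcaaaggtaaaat

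Kap carried TATAAA 31 to 26 bases before its start, and 12.3% of 32536 distinct promoter windows in the table held these letters on either strand. GGGCGG stood in the windows of Kap, Odc1 and Cyp2j13, against 33.0% of all windows. Odc1 held it at 4 positions and Cyp2j13 at 2 positions between 58 and 46 bases before its start. The GC content was higher in the Odc1 window than in those of Kap (45.6%) and Cyp2j13 (55.2%). Neither the androgen response element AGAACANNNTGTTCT, present in 0.00922% of windows, nor its half-site TGTTCT, present in 16.0%, was found in the windows of the 5 genes. CCAAT was found in the Acsm3 window alone and in 33.8% of all windows, and the E-box CACGTG in no window of the 5 genes and in 6.04% of all. A match, or the lack of one, in these windows describes only the letters there.

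The kidney libraries held 21323021 to 32670858 counted pairs, and the 36 libraries 21031599 to 33637390. Levels are CPM further scaled within a tissue by TMM factors, which correct for differences in library make-up. The tissue labels were checked against marker genes. Proximal tubule markers such as Slc34a1 and Lrp2 summed to 10217 to 12463 CPM in kidney, against 0.344 to 1.87 in liver and 1.05 to 4.98 in heart. Hepatocyte markers summed to 67365 CPM or more in every liver library and cardiomyocyte markers to 43659 CPM or more in every heart library. Of the adrenal cortex markers, Cyp11b2 and Cyp21a1 were at 0 in all kidney libraries and Cyp11a1 reached at most 0.0459 CPM, while Star, the cholesterol transport gene on the same list, was at 4.31 to 5.69 CPM in kidney, 1.73 to 2.84 in liver and 1.31 to 4.48 in heart. Brown fat markers, Ucp1 among them, varied from 0.0459 to 33.1 CPM between kidney libraries. Xist stayed at or below 0.226 CPM in kidney while the Y-linked gene Ddx3y was at 58.2 to 71.1 CPM. In whole tissue, fewer cells of a type and less RNA per cell cannot be told apart.

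**Figure D1:**
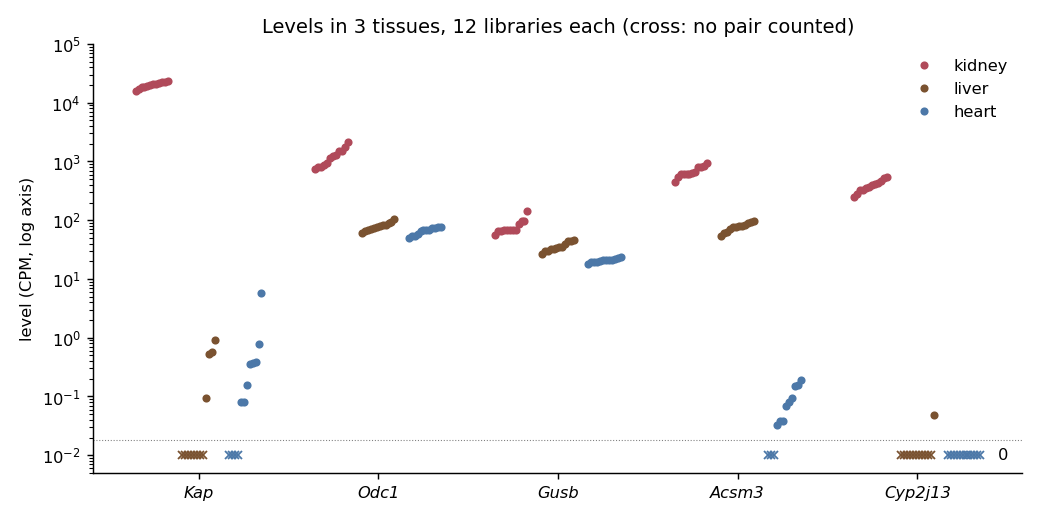
Level of each gene in the 12 kidney, 12 liver and 12 heart libraries, in CPM on a log axis, sorted within each tissue. Crosses below the dotted line mark libraries with no counted pair, and Kap and Cyp2j13 were seen almost only in kidney.

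Kap was among the most abundant transcripts of the kidney. It took 1.59% to 2.31% of all counted pairs and ranked 4 by CPM among 78168 genes with a known transcript length, and per kilobase of its 707-base canonical transcript it ranked 1. Per kilobase, the mean kidney level was 28481 CPM for Kap, 531 for Odc1, 255 for Acsm3, 88.4 for Cyp2j13 and 29.4 for Gusb. The ranges over the 12 libraries do not overlap between neighbours in this order except for Odc1, with 327 to 924 CPM per kilobase, and Acsm3, with 169 to 355. Within each of the 12 libraries Odc1 was above Acsm3, by 1.34 to 3.39 times. With the Acsm3 pairs counted by strand, which can include reads of Eri2, Odc1 was above Acsm3 in only 5 of the 12 and the ratio ran from 0.706 to 1.69, so the order of these 2 genes depends on the counting.

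Kap and Cyp2j13 were close to confined to kidney. Kap had 6673106 pairs in the kidney libraries, 54 in all liver libraries and 185 in all heart libraries. This made its pooled rate 119455 times higher in kidney than in liver (95% counting interval 91551 to 159012) and 33370 times higher than in heart (28893 to 38754). Cyp2j13 had 130759 pairs in kidney, 1 in liver and 0 in heart. The ratio to liver was 126398 with an interval of 22686 to 4.99e+06. The ratio to heart had a lower 95% counting limit of 32792 and no upper limit. Set against a floor of 3 counts over all 12 heart libraries, which is 0.00977 CPM, the kidney rate of Cyp2j13 was 40323 times higher. Intervals and floors cover counting error only.

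The other genes were expressed more widely. Acsm3 lay at 449 to 942 CPM in kidney and 54.9 to 98.3 CPM in liver, a log2 difference of 2.34 (SE 0.09) in the fit of all 36 libraries, and had only 21 pairs in heart. Odc1 lay at 757 to 2137 CPM in kidney, 61.7 to 105 in liver and 50.6 to 76.3 in heart, with log2 differences of 3.13 (SE 0.12) and 3.68 (SE 0.13). Gusb, an enzyme of lysosomes in all cells, differed least, with 56.8 to 145 CPM in kidney, 27.1 to 45.4 in liver and 17.9 to 23.4 in heart. Its log2 differences were 0.34 (SE 0.08) from liver, adjusted p = 0.000318, and 1.38 (SE 0.08) from heart, adjusted p = 8.18e-17. In CPM scaled within each tissue, the lowest kidney library of each gene lay above the highest liver and heart library. Whether this holds with scaling across tissues, where Gusb differed less from liver, was not tested. All 5 passed an adjusted p of 0.05 in both tissue comparisons (edgeR quasi-likelihood test, Benjamini-Hochberg over 19716 genes), where 83.1% of all genes passed against liver and 86.1% against heart, so that passing does not set them apart. These log2 differences are after TMM scaling across the 3 tissues and are smaller than the pooled rates without it. The pooled kidney rate was 8.91 times the liver rate for Acsm3 (95% counting interval 8.80 to 9.03), 15.9 times for Odc1 (15.7 to 16.1) and 2.27 times for Gusb (2.22 to 2.32). Against heart it was 18.97 times higher for Odc1 (18.7 to 19.2) and 3.85 times for Gusb (3.75 to 3.96). Fold values for Kap and Cyp2j13 are those of the pooled counts above, since a fitted fold against a level near 0 depends on the fit.

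The comparison of ages asked whether kidney levels changed over these weeks of growth. None of the 5 genes passed the adjusted p of 0.05 in any of the 3 comparisons, with edgeR's test over 17649 genes. The background was low as well, with 0.0567% of all genes passing at 12 against 8 weeks, 0.929% at 10 against 8 weeks and 0.482% at 12 against 10 weeks. At an unadjusted p under 0.05, 3 of the 5 would be counted at 12 against 8 weeks, 2 at 10 against 8 weeks and 2 at 12 against 10 weeks, where 11.7%, 16.5% and 16.4% of all genes were under it. DESeq2 passed 0, 0 and 1 of them, the last being Gusb with an adjusted p of 0.0206, and limma (voom) passed 0 in each. In the 3 comparisons DESeq2 called 0.776%, 3.85% and 3.72% of all genes. The adjusted p of the 5 genes ran from 0.260 to 0.851, from 0.243 to 0.949 and from 0.111 to 0.948 in the 3 comparisons.

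**Figure D2:**
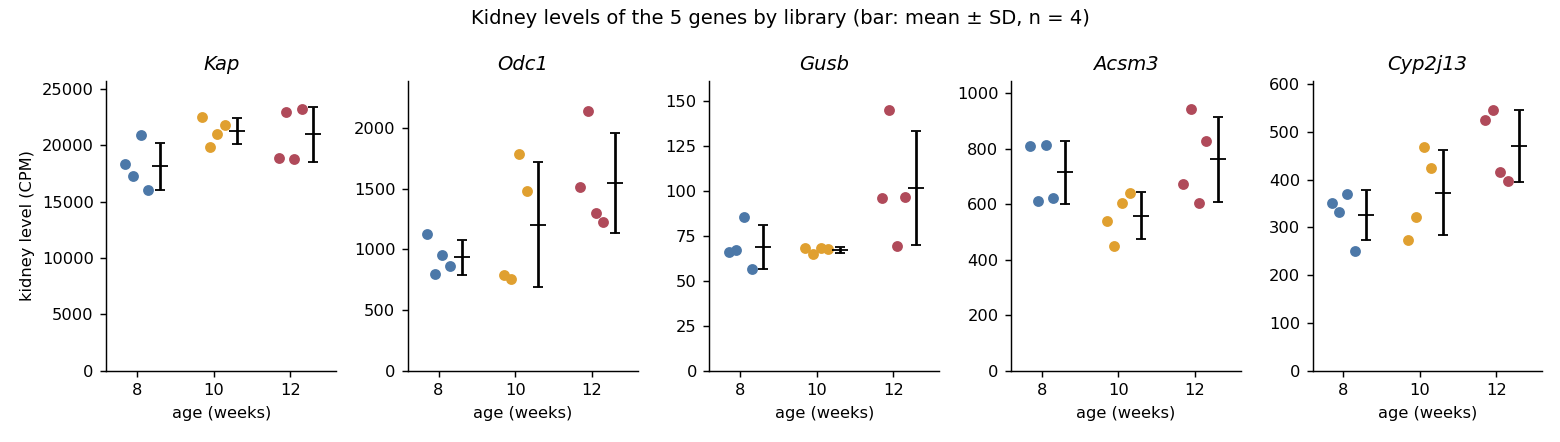
Kidney level in CPM of each gene in every library at 8, 10 and 12 weeks, with the mean and SD of the 4 libraries beside the points. Odc1 and Cyp2j13 at 12 weeks lie above all 8-week libraries, and 1 library at 12 weeks, replicate 2, is highest for Odc1, Gusb, Acsm3 and Cyp2j13.

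Kap was high at every age. Replicates 1 to 4 had 18334, 17276, 20962 and 15999 CPM at 8 weeks, 22525, 19818, 20997 and 21822 CPM at 10 weeks, and 18897, 22929, 18807 and 23265 CPM at 12 weeks. The ages overlap, and Kap varied least among the 5 genes, with a coefficient of variation of 11.6% over the 12 libraries. Its log2 fold change was 0.21 (SE 0.10, adjusted p = 0.457) at 12 against 8 weeks, 0.23 (SE 0.10, adjusted p = 0.275) at 10 against 8 weeks and -0.02 (SE 0.10, adjusted p = 0.948) at 12 against 10 weeks. The sign of the last value turned without 10-week replicate 1 (0.0074), 12-week replicate 1 (0.025) or 12-week replicate 3 (0.026).

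Odc1 varied most. It had 1128, 796, 953 and 862 CPM at 8 weeks, 792, 757, 1786 and 1482 CPM at 10 weeks, and 1516, 2137, 1296 and 1228 CPM at 12 weeks. Every 12-week library lay above every 8-week library, while at 10 weeks replicates 1 and 2 were below every 8-week library and replicates 3 and 4 were within the 12-week range. The coefficient of variation was 42.5% in the 10-week group, against 15.4% in the 8-week and 26.8% in the 12-week group. The log2 fold change was 0.72 (SE 0.25) at 12 against 8 weeks, with an unadjusted p of 0.0129 and an adjusted p of 0.316 by edgeR. At 10 against 8 weeks it was 0.37 (SE 0.25, adjusted p = 0.514) and at 12 against 10 weeks 0.36 (SE 0.25, adjusted p = 0.520). Without 10-week replicate 3 these became 0.11 and 0.61, and without 12-week replicate 2 the last was 0.16.

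Cyp2j13 had 352, 332, 370 and 250 CPM at 8 weeks, 275, 322, 468 and 425 CPM at 10 weeks, and 525, 547, 415 and 398 CPM at 12 weeks. As with Odc1, all 12-week libraries lay above all 8-week libraries, and 10-week replicates 3 and 4 were above replicates 1 and 2. Its log2 fold change at 12 against 8 weeks was 0.53 (SE 0.17), with an unadjusted p of 0.00617 and an adjusted p of 0.272. It was 0.19 (SE 0.16, adjusted p = 0.613) at 10 against 8 weeks and 0.34 (SE 0.16, adjusted p = 0.326) at 12 against 10 weeks. The first of these was 0.065 without 10-week replicate 3 and 0.31 without 10-week replicate 1, which moved the second to 0.22.

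Gusb had 65.8, 67.3, 85.7 and 56.8 CPM at 8 weeks, 68.4, 64.8, 68.4 and 67.5 CPM at 10 weeks, and 96.0, 145, 69.3 and 96.4 CPM at 12 weeks. The 10-week libraries were very close together, and every 12-week library lay above them, replicate 3 by the least. The log2 fold change was 0.60 (SE 0.17, adjusted p = 0.111) at 12 against 10 weeks, 0.56 (SE 0.17, adjusted p = 0.260) at 12 against 8 weeks and -0.04 (SE 0.17, adjusted p = 0.949) at 10 against 8 weeks. Without 8-week replicate 3 the last value was 0.088. Leaving out 12-week replicate 2 moved the estimate to 0.37 (adjusted p = 0.273) at 12 against 10 weeks.

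Acsm3 was lowest at 10 weeks. It had 809, 613, 814 and 622 CPM at 8 weeks, 540, 449, 605 and 639 CPM at 10 weeks, and 672, 942, 604 and 828 CPM at 12 weeks, and all ages overlap. The log2 fold change was -0.35 (SE 0.15, adjusted p = 0.243) at 10 against 8 weeks, 0.45 (SE 0.15, adjusted p = 0.149) at 12 against 10 weeks and 0.09 (SE 0.15, adjusted p = 0.851) at 12 against 8 weeks. The last value was -0.031 without 12-week replicate 2 and 0.19 without 12-week replicate 3.

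Of the 5 genes, 2 had no overlap between the 4 and 4 libraries at 12 against 8 weeks (Odc1 and Cyp2j13), where 6.61% of all genes tested did, 0 at 10 against 8 weeks, where 9.09% did, and 1 at 12 against 10 weeks (Gusb), where 8.93% did. The 12-week library of replicate 2 was highest of all 12 for 4 of the 5 genes, and the highest for Kap was 12-week replicate 4. Without replicate 2, the log2 fold change at 12 against 8 weeks was 0.52 (SE 0.25) for Odc1, 0.34 (SE 0.13) for Gusb, 0.45 (SE 0.18) for Cyp2j13 and 0.16 (SE 0.11) for Kap. The adjusted p was then 0.602 or more for each. This library also had the highest sum of immune cell markers, Cd74 and Jchain among them, with 218 CPM. The other 12-week libraries were at 135 to 149 CPM, the 8-week libraries at 96.8 to 119 and the 10-week libraries at 114 to 124. Its sum of hepatocyte markers, most of it Ttr, was the highest as well, with 204 CPM against 79.3 to 163 in the rest. Their part in the levels of the 5 genes was not tested. The proximal tubule sum of this library, 11750 CPM, lay within the range of the others.

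**Figure D3:**
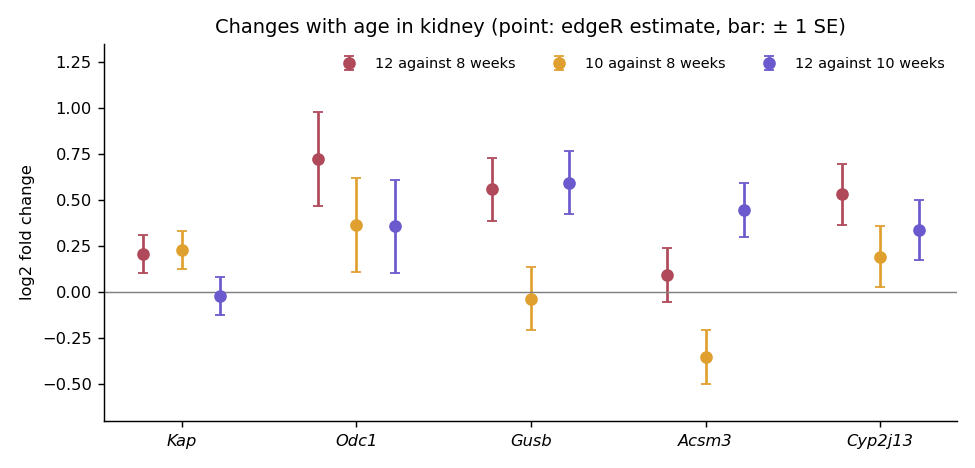
Log2 fold change of each gene in kidney for 12 against 8, 10 against 8 and 12 against 10 weeks, from edgeR's fit of 12 kidney libraries, with bars of 1 SE. Odc1 at 12 against 8 weeks has the largest estimate, 0.72, and the widest bar, 0.25, and no estimate passed the adjusted p.

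The 10 pairs of the 5 genes were compared over the 12 kidney libraries on log2 CPM. Odc1 and Cyp2j13 varied most closely, with Pearson's r = 0.90 (permutation p = 1e-04, adjusted over 10 pairs 0.001) and Spearman's rho = 0.94 (permutation p = 6e-05, adjusted 0.0006). With each age centred on its mean, r was 0.83 (permutation p = 0.00133, adjusted 0.0075). That permutation shuffled all 12 libraries freely and ignored the age means removed, so each age-centred p is too small. Without the 2 libraries farthest from the median of Odc1, r was 0.88 (permutation p = 0.00075, adjusted 0.0075). Leaving out any 1 library gave r from 0.86 to 0.93. The relation was therefore present within ages as well as across them, and the high 10-week libraries, replicates 3 and 4, were high for both genes.

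The other pairs were looser. Gusb with Cyp2j13 had r = 0.71 (permutation p = 0.00751, adjusted 0.0328) and rho = 0.69 (permutation p = 0.0163, adjusted 0.0712), and Gusb with Acsm3 had r = 0.70 (permutation p = 0.00984, adjusted 0.0328) and rho = 0.56 (permutation p = 0.0615, adjusted 0.123). Without the 2 libraries farthest from the median of Gusb, Gusb with Cyp2j13 had r = 0.67 (permutation p = 0.0319, adjusted 0.159). Gusb with Acsm3 then had r = 0.39 (permutation p = 0.257, adjusted 0.643). Neither passed, but leaving out the extremes of Gusb narrows its range, which can lower r by itself. Leaving out any 1 library gave r from 0.61 to 0.79 for Gusb with Cyp2j13 and from 0.54 to 0.80 for Gusb with Acsm3. Kap with the other genes had r from 0.28 to 0.57, none of which passed. With each age centred, Kap had r = 0.74 with Gusb (permutation p = 0.00307, adjusted 0.00767) and r = 0.82 with Acsm3 (permutation p = 0.00225, adjusted 0.0075), whereas Kap with Odc1 went from 0.41 to 0.21 and with Cyp2j13 from 0.43 to 0.24. Gusb with Acsm3 (r = 0.73) and Odc1 with Acsm3 (r = 0.69, permutation p = 0.016, adjusted 0.0321) also passed within ages, and Gusb with Cyp2j13 (r = 0.51) did not. Since age-centred p-values are too small, the calls within ages are not secure, least of all that of Odc1 with Acsm3.

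**Figure D4:**
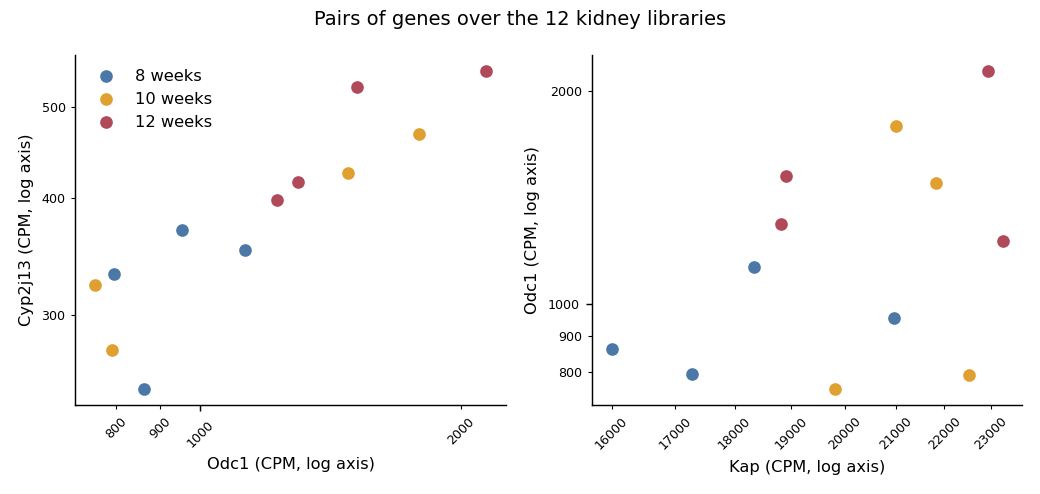
Cyp2j13 against Odc1 (left) and Odc1 against Kap (right) in the 12 kidney libraries, in CPM on log axes, with points marked by age. The points of the left panel lie along a line (r = 0.90), those of the right panel scatter (r = 0.41).

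Among 14207 other genes with a mean of at least 1 CPM in kidney, those most like each of the 5 over the 12 libraries were listed by Pearson's r, which describes these libraries only, since all genes share their depth and scaling. Those nearest to Odc1 were Amacr, a racemase of branched-chain fatty acid and bile acid intermediates (r = 0.97), Nhp2, a protein of small nucleolar ribonucleoproteins (0.96), and Vps8, a subunit of an endosomal tethering complex (0.96). Those near to Cyp2j13 included the prostaglandin transporter gene Slc22a22 (0.95) and Lipo2, of the acid lipase family (0.95). For Gusb they were Rab1b (0.94), the lysosomal sulfatase gene Galns (0.93) and Nalf2 (0.93). For Acsm3 they were Smpd2 (0.90), Rab17 (0.90) and Pgm1 (0.89), and for Kap they were Frg1 (0.93), Nucb2 (0.90) and Gm68762 (0.89).

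Other kidney genes with known male-higher expression were read beside the 5. This list and those below were chosen with earlier results of these data known. Their directions and medians therefore only describe these libraries. In the male-higher list of 14 genes, 12 had a higher estimate at 12 than at 8 weeks. The median log2 fold change was 0.25, against 0.003 over all genes tested, and 0 passed the adjusted p by edgeR, though 10 had an unadjusted p under 0.05, as did 11.7% of all genes. DESeq2 passed 1 of them, Cyp4b1, where it called 0.776% of all genes, and limma passed 0. At 12 against 10 weeks, 12 were again higher with a median of 0.22 against -0.001 over all genes. By edgeR and by limma 1 passed, and by DESeq2 3 passed. The shares of all genes that passed were 0.482%, 0.47% and 3.72%. At 10 against 8 weeks 8 were higher with a median of 0.08 against 0.002, and 0 passed by any of these tools. An unadjusted p under 0.05 was found for 1 of them and for 16.5% of all genes. The gene that passed by edgeR was Cyp4b1, a fatty acid hydroxylase of the proximal tubule. It had 2874, 2902, 3300 and 3483 CPM at 10 weeks and 4581, 5522, 3995 and 4433 CPM at 12 weeks, with no overlap and a log2 fold change of 0.56 (SE 0.11, adjusted p = 0.0385). The call is near the threshold: it was lost without 8-week replicates 2 (0.0562) or 3 (0.0526), without 10-week replicates 1 (0.116), 2 (0.0941) or 3 (0.0903), and without 12-week replicates 2 (0.115) or 4 (0.0691). It was also lost in a fit of only these 2 ages (0.0850).

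Of the other male-higher genes, those with the highest levels were Cyp2e1, Cyp2j5, Akr1c21 and Slc7a13. Cyp2e1, a P450 that oxidises ethanol and acetone, was at 1566 to 2135 CPM at 10 weeks and 2335 to 2600 CPM at 12 weeks, a log2 fold change of 0.38 with an adjusted p of 0.0854. Cyp2j5, the most abundant Cyp2j gene, lay between 1548 and 1754 CPM in all libraries, with log2 estimates of -0.04 to 0.03. Akr1c21, a hydroxysteroid dehydrogenase, had an estimate of 0.20 (adjusted p = 0.396) at 12 against 8 weeks. Slc7a13, an aspartate and cystine transporter, had 0.46 (adjusted p = 0.283), and over the 12 libraries its r with Odc1 was 0.95 and with Cyp2j13 0.92. The 14 genes had a median r of 0.63 with Odc1 and 13 of them were above 0, against a median of -0.008 over all genes compared. The 12-week library of replicate 2 was highest for 8 of the 14.

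Of 5 genes with female-higher expression, all had lower estimates at 12 than at 8 weeks. Their median was -0.60 on the log2 scale. By edgeR 0 passed and 3 had an unadjusted p under 0.05, as did 11.7% of all genes. At 12 against 10 weeks all 5 were again lower with a median of -0.79, 0 passed and all had an unadjusted p under 0.05, as did 16.4% of all genes. At 10 against 8 weeks the direction was mixed, with 3 higher and 2 lower, a median of 0.09, and 0 passed by edgeR, limma or DESeq2, 0 also at an unadjusted p under 0.05. At 12 against 8 and at 12 against 10 weeks DESeq2 passed 1, Akr1c18, and limma 0. DESeq2 called 0.776% and 3.72% of all genes there. The 4 with the highest levels were Cyp4a14, Abcc4, Akr1c18 and Prlr. Akr1c18, which inactivates progesterone, had 39.6, 33.5, 45.8 and 38.7 CPM at 8 weeks, 36.9, 38.8, 31.7 and 35.1 CPM at 10 weeks, and 18.8, 32.7, 24.7 and 27.9 CPM at 12 weeks. All 12-week values lay below all 8-week values, with a log2 fold change of -0.60 and an adjusted p of 0.154. Cyp4a14, a fatty acid hydroxylase, was at 3.38 to 6.68 CPM at 12 weeks and 11.7 CPM or more in every younger library, and 8-week replicate 4 (184 CPM) and 10-week replicate 1 (545 CPM) stood far above the rest. The efflux pump gene Abcc4 had a log2 estimate of -0.20 at 12 against 8 weeks (adjusted p = 0.583), and Prlr, the prolactin receptor gene, -0.84 (adjusted p = 0.353). The genes of both lists share the 12 libraries with the 5 genes, so their pattern is no separate evidence.

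**Figure D5:**
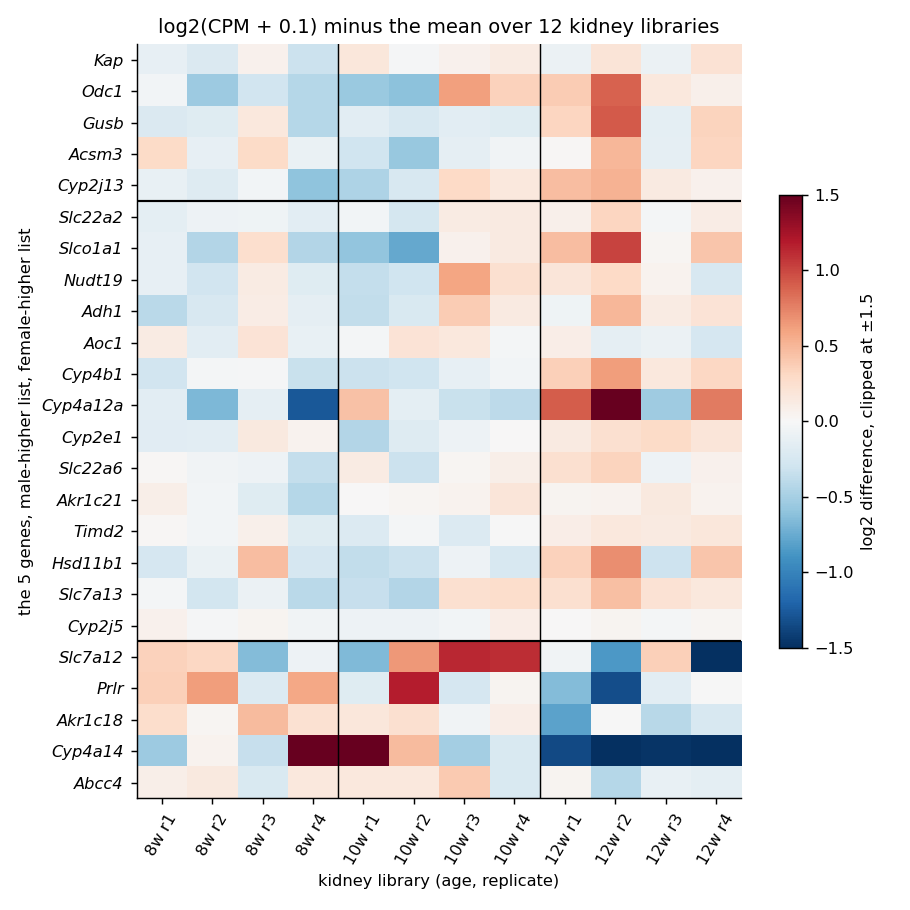
Kidney level of the 5 genes, of 14 genes known as higher in males and of 5 known as higher in females, one column per library, as log2(CPM + 0.1) minus the mean over the 12 kidney libraries. The column of 12-week replicate 2 is red for Odc1, Gusb, Cyp2j13 and most male-higher genes, and Cyp4a14 is blue at 12 weeks.

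Genes that act in androgen signalling gave few calls in kidney. Of 8 such genes, 4 were higher and 4 lower at 12 against 8 weeks, 2 were higher at 10 against 8 weeks and 5 at 12 against 10 weeks. By edgeR and limma 0 passed in each, with 2, 1 and 2 at an unadjusted p under 0.05 (11.7%, 16.5% and 16.4% of all genes). DESeq2 passed 0, 1 (Fkbp4) and 1 (Srd5a2), where it called 0.776%, 3.85% and 3.72% of all genes. The co-chaperone genes Fkbp5 and Fkbp4 had means of 227 and 225 CPM and the coactivator gene Ncoa4 197 CPM, with adjusted p of 0.334 or more at 12 against 8 weeks. Srd5a2 encodes a steroid 5-alpha-reductase, which turns testosterone into dihydrotestosterone, and is singled out here after its values were seen. It had 6.94, 5.07, 9.20 and 4.21 CPM at 8 weeks and 16.1, 31.7, 8.34 and 15.8 CPM at 12 weeks, with an unadjusted p of 0.00136 and an adjusted p of 0.201 by edgeR, and 12-week replicate 2 was again the highest.

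Genes around the enzymes of the 5 were read in the same way. Of 13 tested genes of polyamine metabolism, 5 were higher and 8 lower at 12 against 8 weeks, with a median of -0.05. By edgeR and limma 0 passed in any comparison, with 2, 2 and 4 at an unadjusted p under 0.05 against the same shares of all genes. DESeq2 passed 0 at 12 against 8 weeks, 1 (Paox) at 10 against 8 and 1 (Oaz2) at 12 against 10. Its shares of all genes were 0.776%, 3.85% and 3.72%. The most abundant were Slc3a2 at 213 CPM, Sat1, which acetylates spermidine and spermine, at 202, the antizyme gene Oaz1 at 169 and the antizyme inhibitor gene Azin1 at 157, with log2 estimates between -0.24 and 0.04 at 12 against 8 weeks. Of 13 lysosomal genes, 9 were higher at 12 against 8 weeks and 11 at 12 against 10 weeks, with medians of 0.03 and 0.13. By edgeR and limma 0 passed in each, with 2 and 6 at an unadjusted p under 0.05. DESeq2 passed 0 and 4 (Ces1e, Galns, Glb1 and Naglu), where it called 0.776% and 3.72% of all genes. Arsb, Glb1 and Galns, which degrade glycosaminoglycans or galactosides, were among the most abundant, and Galns had the highest estimate of the list at 12 against 10 weeks, 0.40 (adjusted p = 0.0852). Ces1e, which encodes egasyn, the esterase that holds beta-glucuronidase in the endoplasmic reticulum, had 0.38 (adjusted p = 0.0706).

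Acsm3 stood in a family led by Acsm2, with a mean of 6386 CPM, and followed by Acsm1 at 187 and Acsm5 at 157 CPM, while Acsm4 was at 0.0292 CPM. The 3 tested relatives had lower estimates at 10 against 8 weeks, -0.25 to -0.09, and higher ones at 12 against 10 weeks, 0.13 to 0.32. By edgeR and limma 0 passed in each, and DESeq2 passed 0 and 2 (Acsm2 and Acsm5), where it called 3.85% and 3.72% of all genes. At an unadjusted p under 0.05 there were 1 and 2 of the 3, against 16.5% and 16.4% of all genes. Of the Cyp2j relatives, Cyp2j5, Cyp2j11 at 254 CPM, Cyp2j6 at 48.1 CPM and Cyp2j9 at 18.6 CPM had log2 estimates of -0.08 to 0.00037 at 12 against 8 weeks, beside 0.53 for Cyp2j13. The remaining tested relatives were low, Cyp2j7 at 1.46 CPM with an estimate of 0.34 (adjusted p = 0.593) and Cyp2j8 at 0.652 CPM with -0.10 (adjusted p = 0.916). By edgeR, limma and DESeq2 0 of 6 tested relatives passed in any comparison. At an unadjusted p under 0.05 there were 0, 1 and 1 of the 6 at 12 against 8, 10 against 8 and 12 against 10 weeks. The shares of all genes were 11.7%, 16.5% and 16.4%. The difference between Cyp2j13 and its relatives was not tested.

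In liver, Odc1, Gusb and Acsm3 passed the count filter and none passed the test, where 0.239%, 0.0204% and 0.0545% of all genes did at 12 against 8, 10 against 8 and 12 against 10 weeks. The counts at an unadjusted p under 0.05 were 0, 2 and 1 of the 3, where 15.1%, 14.3% and 14.1% of all genes were under it. DESeq2 and limma passed 0 in each. Gusb had 34.4, 39.6, 45.4 and 44.2 CPM at 8 weeks, 33.5, 32.5, 27.1 and 30.2 CPM at 10 weeks, and 30.1, 32.7, 34.6 and 44.4 CPM at 12 weeks. All 10-week values lay below the 8-week values, with a log2 fold change of -0.41 (SE 0.13, adjusted p = 0.193). Acsm3 was lower at 10 weeks too, with 54.9 to 79.4 CPM against 76.8 to 98.3 CPM at 8 weeks and an estimate of -0.41 (SE 0.12, adjusted p = 0.181). Odc1 lay at 78.7 to 94.7, 61.7 to 81.8 and 66.5 to 105 CPM at the 3 ages.

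The change with age in kidney was set against that in liver by an interaction term over all 36 libraries, for the 3 genes with levels in both tissues. None passed, where 0.304% of all genes did for 12 against 8 weeks, 0.0558% for 10 against 8 weeks and 0.761% for 12 against 10 weeks. At an unadjusted p under 0.05 there were 2, 1 and 1 of the 3, against 11.2%, 9.44% and 11.6% of all genes. By limma 0 passed in each. At 12 against 8 weeks the kidney change exceeded the liver change by 0.75 on the log2 scale for Gusb (SE 0.20, adjusted p = 0.0822), by 0.84 for Odc1 (SE 0.28, adjusted p = 0.188) and by 0.17 for Acsm3 (SE 0.20, adjusted p = 0.831). For Gusb the difference passed without kidney 8-week replicate 3 (0.88, adjusted p = 0.0465), kidney 12-week replicate 3 (0.90, adjusted p = 0.0246) or liver 12-week replicate 4 (0.88, adjusted p = 0.0227). The range of its adjusted p over 40 alternatives was 0.00074 to 0.206.

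In heart, Odc1 and Gusb were low and steady and Kap was at trace level. Odc1 had a log2 estimate of 0.26 (SE 0.11, adjusted p = 0.151) at 12 against 8 weeks and Gusb 0.17 (SE 0.08, adjusted p = 0.229). Without 8-week replicate 1, Odc1 passed with 0.37 (adjusted p = 0.0404). Of all heart genes, 4.56% passed at 12 against 8 weeks, 1.06% at 10 against 8 weeks and 0.0396% at 12 against 10 weeks. Of the 3 genes tested, 1, 0 and 0 did. At an unadjusted p under 0.05 there were 2, 0 and 2 of the 3, against 23.4%, 15.8% and 11.7% of all heart genes. DESeq2 passed 0 in each and limma 1, 0 and 0. The gene that passed was Kap. It met the count filter in heart only through the 12-week libraries, with totals of 2, 16 and 167 pairs at 8, 10 and 12 weeks. Its test therefore draws on the same group that let it in and is no independent support for a rise. In replicates 1 to 4 it had 2, 0, 0 and 0 pairs at 8 weeks, 10, 0, 4 and 2 pairs at 10 weeks, and 124, 22, 11 and 10 pairs at 12 weeks, the highest being 5.68 CPM of the counted pairs of its library. For the hearts with 0 pairs the upper 95% counting limit was 0.125 to 0.170 CPM. The pooled rate was 80.2 times higher at 12 than at 8 weeks (95% counting interval 21.8 to 667) and 25.96 times higher without 12-week replicate 1 (6.76 to 221).

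By edgeR, Kap had an adjusted p of 0.0173 at 12 against 8 weeks, 0.0321 without 12-week replicate 1, and missed the threshold without 8-week replicates 2 (0.0531) or 4 (0.0555). Over the alternatives that tested it the adjusted p ran from 1.25e-21 to 0.0555. DESeq2 gave no adjusted p for Kap. The 13 kidney markers summed to 3.42 to 4.197 CPM in the 12-week hearts, 3.36 to 5.71 in the 10-week hearts and 1.53 to 3.68 in the 8-week hearts, and 6 to 9 of the 13 were above 0 at 12 weeks against 5 to 7 at 8 weeks. Most of that sum was Cubn, with 25 to 85 pairs in every heart library. Slc5a12 and Nphs1 were at 0 in all hearts. In 12-week replicate 1, Slc34a1 had 5 pairs, Miox 4, Lrp2 1, Umod 0 and Cubn 62 beside 124 pairs of Kap, whereas the kidney libraries had 26.9, 6.91, 12.8, 10.2 and 2.75 pairs of these genes per 100 pairs of Kap. At these proportions, 124 pairs of Kap would go with 33.3 pairs of Slc34a1, 12.6 of Umod and 3.42 of Cubn. Other markers were closer to the kidney proportion. Slc12a3 had 7 pairs counted beside 6.60, Slc22a12 3 beside 4.23 and Slc5a2 1 beside 2.11. Slc12a3 and Slc22a12 had pairs in all 12 hearts, 140 and 92 in total, also where Kap was at 0. Slc34a1 and Miox each had 7 pairs over all hearts, in 3 libraries, most of them in 12-week replicate 1. Whether the Kap pairs came from heart cells was not tested. In liver, Kap had 19 pairs in 8-week replicate 3, 13, 19 and 3 pairs in 10-week replicates 1, 2 and 4, and 0 in the other 8 libraries, among them all 12-week livers.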

How the data were processed

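RNA of kidney, liver and heart was read in 36 libraries. The authors checked reads with FastQC 0.11.9, trimmed them with cutadapt 4.2, aligned them with STAR 2.7.11b to GRCm39 with the Ensembl annotation, and deposited the counts of read pairs per gene, whole numbers without normalization. The unstranded column was read, and pairs on no single gene (21.2% to 31.4% of a library) were left out. Names came from GENCODE vM39 on the same build (78168 of 78239 genes).

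The members and lists were chosen with earlier results of these data known. Genes entered a test if at least 2 libraries of some age had reads and the mean count of that age reached 10. The tests were edgeR 4.0.16 (TMM, glmQLFit, glmQLFTest) in R 4.3.3 on the 12 libraries of a tissue, or on all 36 for tissues and interactions. Benjamini-Hochberg adjustment ran over all genes kept, with no minimum fold. In simulated kidney counts at 12 against 8 weeks, 53.3% of planted log2 changes of 0.5 and 71.9% of changes of 1 passed. Of the calls, 5.41% and 6.62% were false. For the kidney minus liver change, 63% of changes of 1 passed and 3.08% of calls were false. The planted genes were drawn at random, with counts independent between genes, so these shares do not give the power for the 5 genes. SE is the log2 fold change over the root of F. Correlations used log2 CPM with a prior count of 2 and two-sided permutation tests (100000 resamples, scipy 1.17.1). Intervals are exact binomial. The named genes are the 5, each list gene past the adjusted p, the 4 others of a list with the highest kidney CPM, and the 3 genes most like each of the 5, of which 3 in all are not reported here. Alternatives were DESeq2 1.42.0, limma 3.58.1 (voom), RLE factors, no count filter, filterByExpr, the summed strand columns, a fit of 2 ages, scaling without the 5 and the mitochondrial genes, a replicate block, and each library left out.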

Additional observations from a re-analysis of the deposited data

Results flagged for a closer look

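Of 39 groups of 4 libraries in which a gene of the 5 had any pair, 5 held a library far from the other 3 by Dixon's gap test. Its chance rate of about 1 in 20 groups does not apply to 4 of them, where the other 3 libraries were at 0 and the gap is the whole range by construction. All were trace levels outside the kidney. Kap in heart at 12 weeks was 5.74 CPM in replicate 1, with the other 3 libraries below 1 CPM, and at 8 weeks replicate 1 alone was above 0, with 0.0804 CPM. In the liver at 8 weeks replicate 3 alone was above 0 for Kap (0.912 CPM) and for Cyp2j13 (0.0480 CPM, a single pair). Acsm3 in heart at 8 weeks was 0.0390 CPM in replicate 4, a single pair, and 0 in the others.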

How the results depend on the processing

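With no count filter, more of the 5 genes passed in kidney: 3 at 12 against 8 weeks (Odc1, Gusb, Cyp2j13), 1 at 10 against 8 weeks (Acsm3) and 3 at 12 against 10 weeks (Gusb, Acsm3, Cyp2j13), with nearly the same fold changes and smaller SE (0.11 in place of 0.25 for Odc1). In that setting 42077 genes were tested and 513, 1005 and 938 called, in place of 10, 164 and 85 of 17649, and the cause was not tested. It also passed 1 of the 5 in heart at 10 against 8 and 1 at 12 against 10 weeks, 2 and 1 in the kidney minus liver change at 12 against 8 and 10 against 8 weeks, 7 male-higher genes in each of 12 against 8 and 12 against 10 weeks, and 3 and 5 female-higher genes. DESeq2, which called 137, 680 and 657 kidney genes, passed 1 of the 5 at 12 against 10 weeks. It also passed 1 and 3 male-higher genes at 12 against 8 and 12 against 10 weeks, and 1 female-higher gene at each. FilterByExpr left 0 in heart at 12 against 8 weeks because it dropped Kap, and a fit of only 10 and 12 weeks left 0 male-higher genes.

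Of the 10 pairs of genes, 3 passed over the 12 kidney libraries, 5 with each age centred and 1 without the 2 libraries farthest from the median. The age-centred count rests on p-values that are too small. Leaving out each library in turn gave 0 to 2 of the 5 in heart at 12 against 8 weeks, 0 to 1 in the kidney minus liver change at 12 against 8 weeks and 0 to 3 male-higher genes at 12 against 10 weeks. It gave log2 values of -0.0309 to 0.187 for Acsm3 in kidney at 12 against 8 weeks, -0.119 to 0.0880 for Gusb at 10 against 8 weeks and -0.0759 to 0.0263 for Kap at 12 against 10 weeks. For Odc1 it gave -0.0216 to 0.222 in liver at 12 against 10 weeks and -0.0442 to 0.143 in heart at 10 against 8 weeks, and for Acsm3 -0.0477 to 0.148 in kidney minus liver at 10 against 8 weeks.

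Replicate numbers did not pair the kidney libraries of different ages (r of deviations -0.17 to 0.14, above 0.1 in 1 of 12 pairs). With the replicate block, 0 of the 5 passed in kidney, 1 in heart at 12 against 10 weeks (Kap, adjusted p = 0.0243), and Cyp4b1 had an adjusted p of 0.0533. Libraries of kidney and liver with the same number had r of 0.06 to 0.26, and 12 of 12 correlated best with their own number, a hint from the data and not the design. With the library number as a replicate block, 0 of the 3 genes passed in the kidney minus liver change. Depth limits the Kap, Acsm3 and Cyp2j13 traces in heart and liver.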
